A study of Mus musculus with 24 samples.

Results

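The Toll-like receptors and their adaptor Myd88 were followed in epididymal white adipose tissue (eWAT) of mice that kept or lost laminin α4 in their adipocytes. The genes were chosen by symbol, and the list holds 10 of them: Tlr1, Tlr2, Tlr3, Tlr4, Tlr6, Tlr7, Tlr8, Tlr9, Tlr13 and Myd88. Of the 10, 9 have a row among the 16730 genes of the deposited count table, and Tlr9 was not analysed here. All 9 were among the 15020 genes that passed the filter of at least 1 CPM, a count scaled to a common library size, in at least 3 mice.

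RNA from whole fat pads of 24 male mice, 6 in each of 4 groups, was read with QuantSeq, which counts 1 tag close to the 3′ end of each polyadenylated transcript. The groups were Lama4 fl/fl mice on chow (the 5015 diet), Lama4 AKO mice on chow, Lama4 fl/fl mice on a high-fat diet with 45% of its energy as fat (HFD) and Lama4 AKO mice on HFD, and each diet was fed for 20 weeks. All 24 mice, littermates of the strain labelled LFKO, carried Lama4 alleles with exon 3 between loxP sites, and the AKO mice also carried a Cre driven by the adiponectin promoter, which is active in adipocytes and not in the macrophages of the pad. Age is not given in the labels. The study states a range of ages at collection, and its legends end chow and HFD feeding at different ages. Age may thus differ between the diet groups, and its part was not tested. The tissue, labelled as gonadal fat, held the adipocyte markers in every library, with summed levels of 8397 to 43770 CPM, and 2 epididymis markers with a row summed to 17.6 CPM at most.

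Toll-like receptors are membrane proteins that recognise molecules of microbes and of damaged cells. Tlr2, which pairs with Tlr1 or Tlr6, recognises lipoproteins at the cell surface, and Tlr4 recognises lipopolysaccharide there. Tlr3 binds double-stranded RNA in endosomes, Tlr7 and Tlr8 sense single-stranded RNA and its breakdown products, and Tlr13 senses bacterial ribosomal RNA. Myd88 passes on the signal of all of these receptors apart from Tlr3, which uses Ticam1. In fat tissue the receptors are best known from the macrophages that surround dying adipocytes in obesity.

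Of the 9 genes, Tlr8 was the one with a fitted level below that on chow in Lama4 AKO mice on HFD. There it was read at a median of 1.5 counts per library, against 28 on chow, while the other 8 genes had higher fitted levels on HFD than on chow. The windows just before the transcription start are shown for Tlr1, Tlr8 and Tlr13, which were picked because they are the 3 of 7 members with a window that hold the first of the motifs named below. They are RefSeq promoter windows on GRCm38.p6, cut to the bases outside the gene, and each is written 5′ to 3′ along the strand of its gene. Capitals mark matches, on either strand, to GAGGAA, the core bound by the macrophage factor PU.1, or to GAAANNGAA, the core of the interferon-stimulated response element.
Tlr1: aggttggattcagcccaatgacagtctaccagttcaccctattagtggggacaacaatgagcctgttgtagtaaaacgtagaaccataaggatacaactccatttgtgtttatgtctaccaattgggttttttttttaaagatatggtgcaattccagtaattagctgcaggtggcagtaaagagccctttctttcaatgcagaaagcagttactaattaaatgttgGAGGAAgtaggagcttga
Tlr13: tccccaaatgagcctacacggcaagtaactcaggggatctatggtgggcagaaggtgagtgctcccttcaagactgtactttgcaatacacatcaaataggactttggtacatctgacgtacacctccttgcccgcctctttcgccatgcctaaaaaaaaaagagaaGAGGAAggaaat
Tlr8: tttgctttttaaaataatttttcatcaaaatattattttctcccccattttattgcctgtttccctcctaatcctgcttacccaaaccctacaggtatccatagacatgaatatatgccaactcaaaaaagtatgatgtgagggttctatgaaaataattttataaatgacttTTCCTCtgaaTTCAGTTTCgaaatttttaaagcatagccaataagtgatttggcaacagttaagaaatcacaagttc

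The Tlr1 window is chr5:64933564-64933808 on the reverse strand, the Tlr13 window chrX:106143025-106143203 on the forward strand, and the Tlr8 window chrX:167264330-167264579 on the reverse strand. GAGGAA starts 23 bases before the RefSeq start of Tlr1 and 83 bases before that of Tlr13, and the Tlr8 window holds it on the opposite strand, 77 bases before the start. Tlr8 also holds GAAANNGAA on the opposite strand, 67 bases before its start. The 7 members with a window have 9 windows in all. Over the 250 bases before the start, GAGGAA was present for 3 of the 7 members, in 3 of the 9 windows, and in 23.3% of all 32851 windows. GAAANNGAA was present for 3 of 7 members, Tlr6, Tlr8 and Myd88, again in 3 of the 9 windows, and in 7.13% of all windows. The windows of Tlr2 and Tlr6 did not hold GAGGAA. A match describes letters and is not a measured binding site. Tlr4 and Tlr7 were among the members with no window.

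On GRCm38, Tlr8 (ENSMUSG00000040522) spans 167242696 to 167264329 and Tlr7 (ENSMUSG00000044583) 167304929 to 167330558 of chromosome X, both on the reverse strand with 40599 bases between them. Tlr13 (ENSMUSG00000033777) lies elsewhere on X, from 106143204 to 106160493. Tlr1 (ENSMUSG00000044827) and Tlr6 (ENSMUSG00000051498) are neighbours on chromosome 5 with 18467 bases between them. Myd88 (ENSMUSG00000032508), at 119335934 to 119341411 of chromosome 9, is overlapped by Acaa1a on the opposite strand. It lies inside the annotated span of Slc22a14 on its own strand. The annotated 3′ ends of Acaa1a and Slc22a14 lie outside Myd88, and whether a share of its reads belongs to those genes was not tested.

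Library totals lay between 5579590 and 18764516 counts, and at these depths 3 counts, the limit that a count of 0 allows, corresponded to 0.171 to 0.512 CPM. The tags of Lama4 lie at its 3′ end and not in exon 3, so its level checks no genotype label. It was 98.4 ± 53.8 CPM (SD, n = 6) in Lama4 fl/fl and 106 ± 25.9 CPM in Lama4 AKO libraries on chow, and 82.5 ± 42.2 against 51.2 ± 20.6 CPM on HFD, with adjusted p-values of 0.980 and 0.347 in edgeR. The study set mice aside as outliers of a principal components analysis, and an earlier match of these counts to its plots inferred that 19 mice were kept. The 5 others are replicate 3 of chow Lama4 fl/fl, replicate 5 of chow Lama4 AKO and replicates 3, 4 and 6 of HFD Lama4 fl/fl. Results are given for all 24 mice and then for those 19.

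QuantSeq gives 1 tag per transcript whatever its length, so levels in CPM can be set side by side between genes. Over the 24 libraries Myd88 was the most abundant of the 9 genes, with 54.8 ± 17.0 CPM (SD, n = 24). Among the receptors Tlr13 came first with 36.5 ± 20.0 CPM, then Tlr7 with 30.5 ± 14.2, Tlr4 with 27.6 ± 9.60 and Tlr3 with 19.4 ± 3.61 CPM. Tlr2, Tlr1 and Tlr6 followed with 13.0 ± 6.79, 12.5 ± 6.01 and 10.3 ± 4.38 CPM. Each step down from Tlr13 to Tlr6 was smaller than 1 SD of the upper gene apart from the step from Tlr3 to Tlr2. The genes were read in the same 24 libraries, and differences between neighbours within libraries were not tested. Tlr8 was last, more than 1 SD of Tlr6 below it, with 1.65 ± 1.55 CPM. Tlr13 was the most abundant receptor in all 6 HFD Lama4 AKO libraries, in 4 of 6 HFD Lama4 fl/fl libraries and in 3 of 6 in each chow group.

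**Figure D1:**
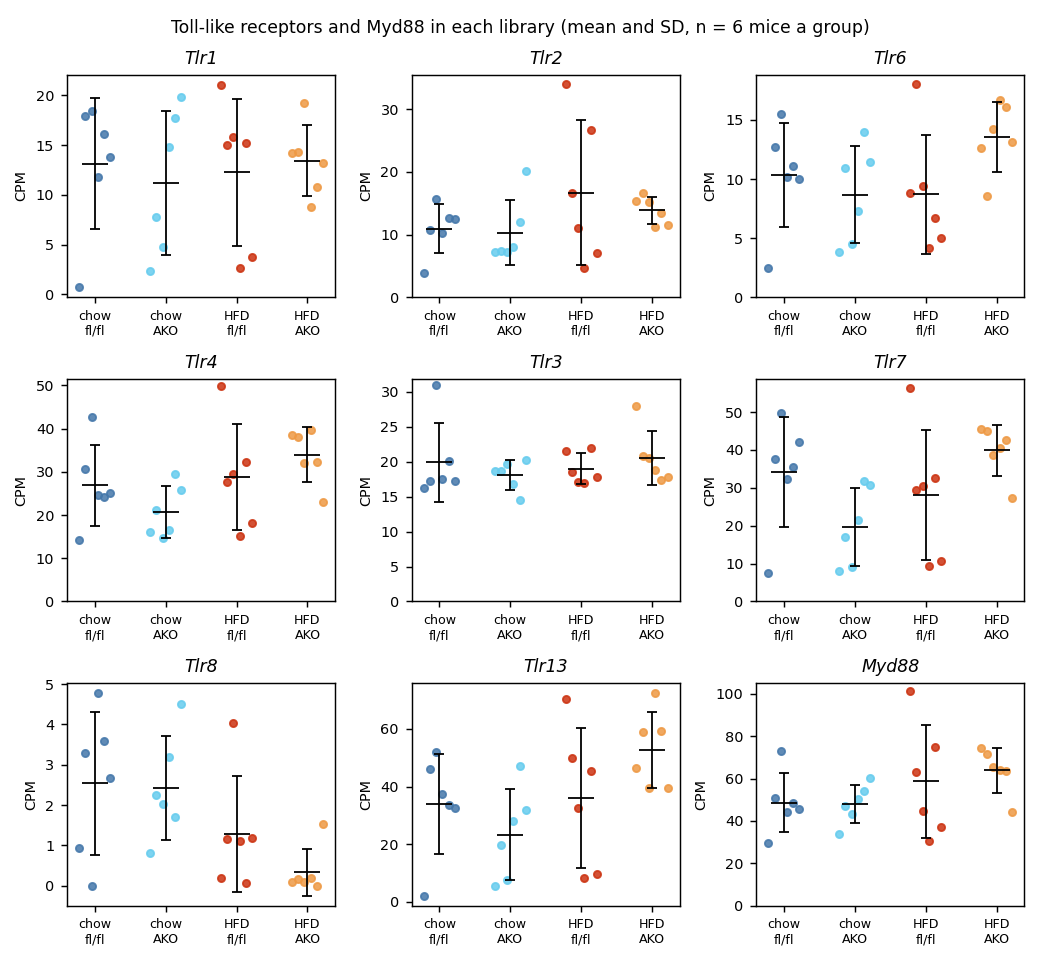
Level of each gene in CPM (y axis, linear from 0) in the 24 libraries, with 1 point a mouse, and a bar with whiskers for the mean and SD of the 6 mice of each group (x axis). Tlr8 lies at or under 0.179 CPM in 5 of 6 HFD Lama4 AKO libraries, 5 of those 6 lie above every chow Lama4 AKO library for Tlr4, Tlr7 and Myd88, and no gene has fully separate ranges in any pair of groups compared.

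A gene was called where its absolute fold change was at least 1.5, its nominal p-value at most 0.001 and the mean of the higher group 2 CPM or more, which are the thresholds of the study. With all 24 mice no member was called in any of the 6 comparisons. Over all genes tested, 0.173% were called for HFD against chow in Lama4 fl/fl mice, 4.12% in Lama4 AKO mice and 2.25% for diet averaged over genotypes. For Lama4 AKO against Lama4 fl/fl the shares were 0.173% on HFD and 0.113% on chow, and 0.386% for the interaction of diet and genotype. At such shares a count of 0 among 9 genes is near the background. At an unadjusted p under 0.05, 0 members passed for diet in Lama4 fl/fl mice, 4 for diet in Lama4 AKO mice, 2 for diet averaged over genotypes, 0 for each comparison of genotypes and 1 for the interaction. Over all genes that threshold was passed by 9.01%, 39.8% and 35.5% for those 3 diet comparisons, by 14.8% for genotype on HFD and 5.85% on chow, and by 15.6% for the interaction, so these counts too are near the background. The ranges of the groups compared overlapped for all 9 genes, and over all genes they were separate for 0.213% by diet in Lama4 fl/fl mice, 6.86% by diet in Lama4 AKO mice, 0.533% by genotype on HFD and 0.260% by genotype on chow.

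None of the surface receptors was called for diet when all mice were used. Tlr4 ranged in Lama4 fl/fl mice from 14.1 to 42.7 CPM on chow, with a median of 24.8, and from 15.2 to 49.8 CPM on HFD, with a median of 28.5. These ranges coincide almost fully, and the log2 fold change was 0.10 with a standard error (SE) of 0.26 (adjusted p = 0.927, edgeR). In Lama4 AKO mice Tlr4 lay between 14.8 and 29.5 CPM on chow, with a median of 18.8 CPM, and between 22.9 and 39.8 CPM on HFD, with a median of 35.2.

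Of the 6 HFD Lama4 AKO libraries, 5 had more Tlr4 than any chow Lama4 AKO library. The log2 fold change was 0.72 (95% interval 0.19 to 1.26, adjusted p = 0.0483, edgeR), so Tlr4 was past an adjusted p of 0.05, as were 22.1% of all genes in that comparison, but was not called. Its diet response was not shown to differ between genotypes, with an interaction of 0.63 (SE 0.37, adjusted p = 0.381).

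Tlr2, the receptor shared by both lipoprotein pairs, had a median of 11.7 CPM in chow and 13.8 CPM in HFD Lama4 fl/fl mice, with ranges of 3.92 to 15.7 and 4.66 to 34.0 CPM. HFD replicates 1, 2 and 5 lay above every chow library, and replicates 3, 4 and 6, which are among the mice set aside, lay within the chow range. In Lama4 AKO mice Tlr2 ranged from 7.16 to 20.2 CPM on chow and from 11.3 to 16.6 CPM on HFD. The log2 fold changes were 0.60 (SE 0.38, adjusted p = 0.650) and 0.43 (SE 0.38, adjusted p = 0.403) in edgeR. Its partners had fitted log2 fold changes below 0 in Lama4 fl/fl mice, -0.10 (SE 0.53) for Tlr1 and -0.25 (SE 0.37) for Tlr6, with adjusted p-values of 0.966 and 0.869. On the AKO background Tlr6 was at 0.66 (SE 0.37, adjusted p = 0.186) and Tlr1 at 0.27 (SE 0.54, adjusted p = 0.728).

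Among the receptors of the endosome, Tlr7 and Tlr13 had the highest fitted diet changes in Lama4 AKO mice. Tlr7 ranged in Lama4 AKO mice from 7.96 to 31.8 CPM on chow (median 19.3) and from 27.2 to 45.6 CPM on HFD (median 41.6). All but 1 of the HFD libraries lay above all of the chow libraries. The log2 fold change was 1.03 (95% interval 0.17 to 1.89, adjusted p = 0.0719, edgeR). Tlr13 ranged from 5.41 to 47.0 CPM on chow (median 23.9) and from 39.3 to 72.4 CPM on HFD (median 52.6) in the same mice, and its log2 fold change was 1.19 (SE 0.56, adjusted p = 0.116). Neither passed the adjusted threshold.

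In Lama4 fl/fl mice Tlr7 had medians of 36.6 CPM on chow and 30.1 CPM on HFD, a log2 fold change of -0.28 (SE 0.41, adjusted p = 0.868, edgeR). The difference between the 2 diet responses of Tlr7 was 1.31 on the log2 scale (95% interval 0.10 to 2.51, adjusted p = 0.295, edgeR), so it did not pass the correction over all genes. For Tlr13 the same difference was 1.11 (SE 0.78, adjusted p = 0.462). Tlr3, the receptor that does not use Myd88, had the lowest coefficient of variation of the 9 genes, 18.6%: its 24 values lay between 14.5 and 31.0 CPM, and its fitted diet changes were -0.07 (SE 0.15) in Lama4 fl/fl and 0.18 (SE 0.15) in Lama4 AKO mice on the log2 scale.

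Tlr8 ran the other way. Its counts in chow Lama4 fl/fl mice were 9, 42, 0, 83, 63 and 35 in replicates 1 to 6, and in chow Lama4 AKO mice 13, 25, 31, 49, 10 and 67. On HFD they were 3, 19, 52, 14, 1 and 16 in Lama4 fl/fl mice and 1, 2, 1, 2, 0 and 17 in Lama4 AKO mice. Each of the chow Lama4 AKO libraries was well above the limit of 3 counts, and 5 of the 6 HFD Lama4 AKO libraries were at or under it.

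The log2 fold change of Tlr8 was -2.82 in Lama4 AKO mice (95% interval -4.71 to -0.93, adjusted p = 0.0345, edgeR), a level on HFD that was 0.142 of that on chow. It rests on 23 counts in all on HFD, and replicate 6 held 17 of them: without that library it was -4.44 (SE 1.03) and Tlr8 was called. In Lama4 fl/fl mice it was -1.0 (SE 0.80, adjusted p = 0.716), and the interaction of -1.82 (SE 1.20, adjusted p = 0.436) does not show the genotypes to differ. Averaged over genotypes it was -1.91 (SE 0.61, adjusted p = 0.0438), where 12.4% of all genes passed the adjusted threshold and Tlr8 was the only member among them.

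The counts of Tlr8 moved with those of a small nucleolar RNA across libraries. Of the 10717 genes with a mean of at least 5 CPM, the 3 whose log2 CPM, less the group means, correlated best with Tlr8 over the 24 libraries were Kif20b, a kinesin of cell division (Pearson's r = 0.929), Snord89 (r = 0.919) and Ppp2r5c, a subunit of protein phosphatase 2A (r = 0.906). In the 8 libraries with at most 3 counts of Tlr8, Snord89 had 4 to 27 counts, and in the other 16 it had 129 to 2690. The 8 comprised chow Lama4 fl/fl replicate 3, HFD Lama4 fl/fl replicates 1 and 5, and replicates 1 to 5 of HFD Lama4 AKO.

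Small nucleolar RNAs guide the modification or processing of ribosomal RNA and in their mature form carry no poly(A) tail, the feature from which a QuantSeq library is primed. Snord89 itself was called lower on HFD in Lama4 AKO mice, with a log2 fold change of -4.81 (SE 1.04, adjusted p = 0.0126, edgeR) and medians of 83.2 CPM on chow and 0.734 CPM on HFD. Snord13 and Snord118, named after their values were seen, tracked Tlr8 less closely (r = 0.416 and 0.235). The part of what Tlr8 shares with Snord89 in the difference of Tlr8 was not tested.

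**Figure D2:**
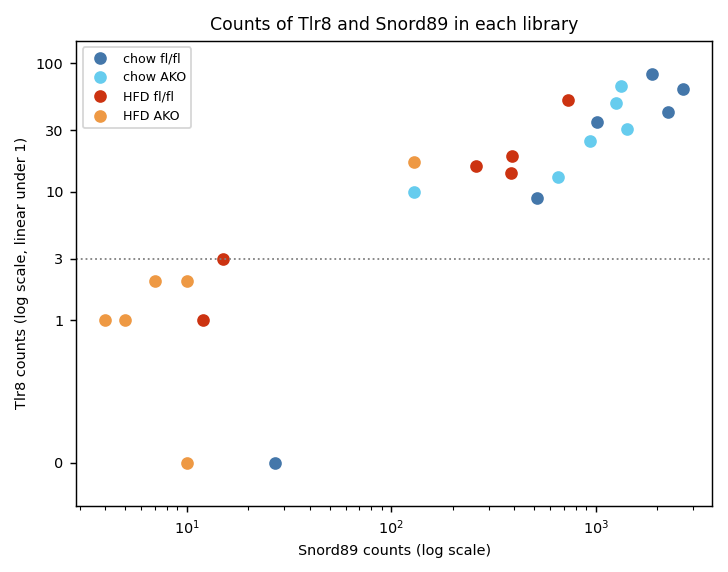
Counts of Tlr8 (y axis, log scale that is linear under 1) against counts of Snord89 (x axis, log scale), 1 point a library, coloured by group. The 8 libraries on or below the dotted line at 3 counts of Tlr8 have at most 27 counts of Snord89, and the other 16 have at least 129.

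Myd88, the adaptor of all the receptors here but Tlr3, overlapped between diets in both genotypes. It ranged from 29.7 to 73.0 CPM in chow and from 30.7 to 102 CPM in HFD Lama4 fl/fl mice, with medians of 47.1 and 54.0. In Lama4 AKO mice it ranged from 33.7 to 60.1 CPM on chow and from 44.2 to 74.3 CPM on HFD, with medians of 48.6 and 64.8, and 5 of 6 HFD libraries lay above every chow library. The log2 fold changes of 0.27 (SE 0.24, adjusted p = 0.746) and 0.41 (SE 0.24, adjusted p = 0.197) did not pass in edgeR.

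Leaving out the 5 mice changed what was called. In Lama4 fl/fl mice Tlr2 was higher on HFD by 1.35 on the log2 scale (SE 0.35, adjusted p = 0.00769) and Myd88 by 0.87 (SE 0.20, adjusted p = 0.00460), so 2 of 9 members were called against 11.8% of all genes. Among Lama4 AKO mice Tlr4 was called, at 0.85 (SE 0.21, adjusted p = 0.00398), against 15.7% of all genes. The Lama4 AKO mouse set aside, chow replicate 5, was the highest of its group for Tlr4 (29.5 CPM), Tlr7 (31.8 CPM) and Tlr13 (47.0 CPM). It was not the highest for Myd88, and its total of 5579590 counts was the lowest of all libraries. The call of Tlr4 thus follows the removal of its highest chow Lama4 AKO library. Averaged over genotypes Tlr2 (0.91), Tlr4 (0.73) and Myd88 (0.66) were called higher and Tlr8 (-2.79, SE 0.60, adjusted p = 0.000908) lower, 4 of 9 members against 21.4% of all genes. The receptors Tlr1, Tlr3 and Tlr6 were not called in any comparison of these mice.

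By an adjusted p of at most 0.05, 3 members passed in Lama4 fl/fl mice, Tlr2 and Myd88 upward and Tlr8 downward, where 29.0% of all genes did. For Lama4 AKO mice 5 passed, Tlr4, Tlr7, Tlr13 and Myd88 upward and Tlr8 downward, with 40.3% of all genes, and averaged over genotypes 6 passed with 51.9%: Tlr2, Tlr4, Tlr7, Tlr13 and Myd88 upward and Tlr8 downward. The mice set aside differ in the measures named above: chow Lama4 fl/fl replicate 3 had 0 counts of Tlr8 and 27 of Snord89, and HFD Lama4 fl/fl replicate 3 had 52 and 729. HFD Lama4 fl/fl replicates 3, 4 and 6 were the lowest of their group for Tlr2, Myd88 and the macrophage markers summed below. Myd88 was at 44.6, 30.7 and 37.1 CPM in them, against 102, 63.3 and 74.8 CPM in replicates 1, 2 and 5. On chow, the Lama4 fl/fl library set aside, replicate 3, was the highest of its group for Tlr2 (15.7 CPM) and Myd88 (73.0 CPM). The calls of Tlr2 and Myd88 in Lama4 fl/fl mice thus rest on HFD replicates 1, 2 and 5. They follow the removal of the lowest HFD libraries and of the highest chow library. Without the 5 mice set aside, Tlr8 was lower on HFD by a log2 fold change of -2.69 in Lama4 fl/fl and -2.90 in Lama4 AKO mice (adjusted p = 0.0334 and 0.00603, edgeR).

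**Figure D3:**
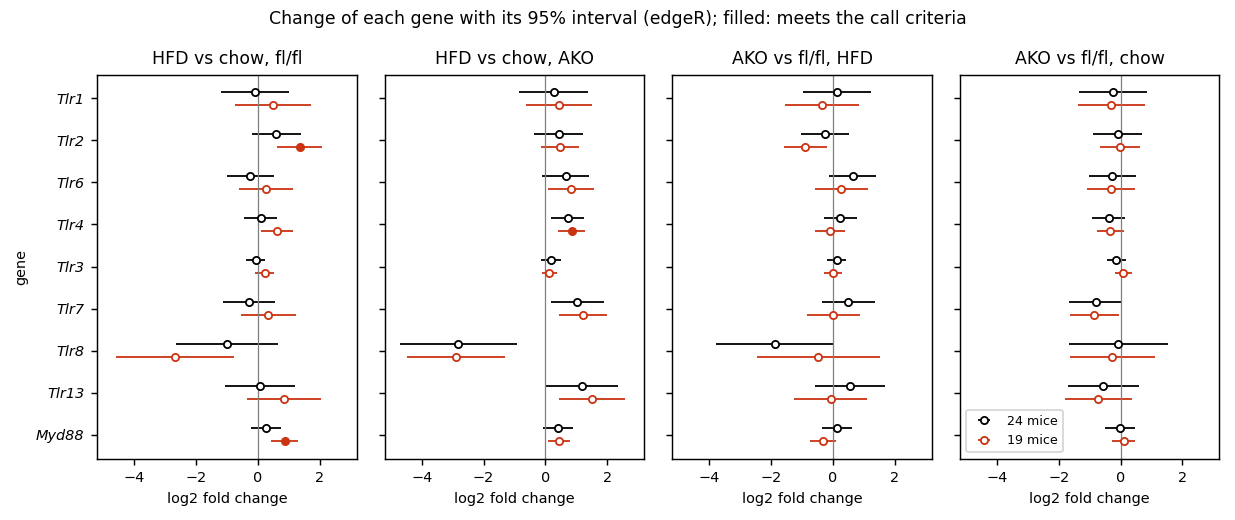
Log2 fold change of each gene (x axis) with its 95% interval in 4 comparisons, for all 24 mice (black) and for the 19 mice (red), with filled points for genes that met the call criteria. Filled points are Tlr2 and Myd88 in Lama4 fl/fl mice and Tlr4 in Lama4 AKO mice, all with 19 mice, and Tlr8 is the gene left of 0 with diet in both genotypes and both sets of mice.

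Genotype gave no member that was called or passed an adjusted p of 0.05 on either diet. On chow all 9 fitted log2 fold changes of Lama4 AKO against Lama4 fl/fl were below 0, with a median of -0.24 beside 0.00408 over all genes, and the lowest was Tlr7 at -0.81 (95% interval -1.66 to 0.05, adjusted p = 0.884, edgeR). All 6 chow Lama4 AKO libraries lay below the median of the chow Lama4 fl/fl libraries for Tlr7. Most members moved together across libraries, so the 9 signs are not separate observations. The macrophage markers summed below had medians of 8956 CPM in chow Lama4 fl/fl and 4890 CPM in chow Lama4 AKO mice, and their part was not tested. With 19 mice 7 of 9 fitted changes on chow were below 0, and Tlr7 was at -0.85 (SE 0.38, adjusted p = 0.568, edgeR). On HFD 7 of 9 were above 0 with 24 mice and 2 of 9 with 19 mice, and Tlr8 was at -1.89 (95% interval -3.79 to 0.02, adjusted p = 0.340) with 24 mice and -0.47 (SE 0.95, adjusted p = 0.926) with 19. With the 19 mice 0.565% of all genes were called between genotypes on HFD, 0.209% on chow and 0.680% for the interaction, and none was a member. At an unadjusted p under 0.05, 1 member passed in each comparison of genotypes, Tlr2 on HFD and Tlr7 on chow, against 11.1% and 8.50% of all genes.

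The family members outside the list were scarce as well. Tlr5, the flagellin receptor, had a mean of 1.48 ± 1.37 CPM (SD, n = 24), Tlr12 one of 2.59 ± 3.59 and Tlr11 one of 0.644 ± 0.509 CPM. Like Tlr8, Tlr5 was lower on HFD in Lama4 AKO mice, where 4 of 6 libraries held at most 3 counts of it, at -2.37 on the log2 scale (SE 0.77, adjusted p = 0.0352, edgeR), and was called with 19 mice at -3.53 in Lama4 fl/fl and -2.51 in Lama4 AKO mice. Tlr12 was higher on HFD in Lama4 fl/fl mice with 19 mice alone, at 3.26 (SE 1.05, adjusted p = 0.0263), and was not called. The deviations of Tlr5 from the group means ran with the summed adipocyte markers (r = 0.882) and against the macrophage markers (r = -0.816), whereas Tlr8 had r = 0.410 and -0.0906 with those sums.

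The other genes of the pathway were counted from lists of symbols, and with 24 mice 1 of them met the call criteria in these lists. S100a8, which codes for a secreted calcium-binding protein that Tlr4 recognises and which neutrophils hold in large amounts, was lower on HFD averaged over genotypes, at -1.39 on the log2 scale (SE 0.33, adjusted p = 0.0231). Its medians were 197 and 105 CPM on chow and 50.9 and 55.9 CPM on HFD in Lama4 fl/fl and Lama4 AKO mice. With 19 mice it was at -1.45 (SE 0.41) and was not called. No gene was called among the 6 co-receptors and ligand carriers, 6 genes of receptor folding and trafficking, 11 tested adaptors and proximal kinases, 16 downstream kinases and transcription factors and 14 targets and feedback inhibitors. An adjusted p of at most 0.05 was passed by 22.1% of all genes for diet in Lama4 AKO mice. By that measure, and named after their values were seen, the kinase Irak1 (0.50), the inhibitor Tollip (0.61) and the chaperone Cnpy3 (0.50) were higher on HFD. The chaperone Hsp90b1 (-1.0) and the cytokine subunit Il12b (-2.55) were lower. Of the 6 ligand genes, the matrix proteoglycan Bgn was higher and the nuclear protein Hmgb1 lower (-0.56) by the same measure.

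With 19 mice more of the signalling genes met the criteria. So did 21.4% of all genes for diet averaged over genotypes, 11.8% in Lama4 fl/fl mice and 15.7% in Lama4 AKO mice. Averaged over genotypes, the adaptors and kinases called were Traf3 (log2 fold change 0.93) and Ticam1 (0.64), both higher on HFD. Tab1 (0.72), Ikbkg (0.72) and Nfkb2 (0.84), of the 16 downstream genes, were called higher too, and so were the Tlr4 partner Ly96 (0.90) and the endosomal transporter Slc15a4 (0.99). Cnpy3 (0.59) was called higher and Hsp90b1 (-1.11) lower, although both help Toll-like receptors to fold. Of the 14 measured targets and feedback inhibitors 0 were called in any comparison with either set of mice. At an adjusted p of 0.05 averaged over genotypes with 19 mice, 2 were higher and 1 lower, where 51.9% of all genes passed. Among the ligands, Bgn (1.14) was higher and Hmgb1 (-0.73) lower. In Lama4 fl/fl mice alone, Traf3 (1.15), Ticam1 (1.07), Irak1 (0.63), Nfkb2 (1.19), Tab1 (0.96), Cnpy3 (0.63), Slc15a4 (1.11) and Bgn (1.06) were called higher and Hsp90b1 (-1.23) and Hmgb1 (-0.84) lower. Lama4 AKO mice had Traf3 (0.70), Slc15a4 (0.87) and Bgn (1.21) called higher and Hsp90b1 (-0.98) lower. Between genotypes on HFD the inhibitor Tollip was called higher in Lama4 AKO mice (0.92, adjusted p = 0.128, edgeR). It was the single gene of these lists to be called for genotype, beside 0.565% of all genes on HFD. The genes Il6 and Ifnb1 were not analysed here.

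The levels of most members moved with the macrophage markers of the library. The sum of 12 macrophage and monocyte markers, all 12 of them measured and none at 0 in any library, ranged from 1796 to 12150 CPM in chow Lama4 fl/fl, 2715 to 9843 in chow Lama4 AKO, 2716 to 14010 in HFD Lama4 fl/fl and 7944 to 15410 CPM in HFD Lama4 AKO mice. After subtraction of the group means, log2 levels correlated with this sum at r = 0.960 for Tlr13, 0.952 for Tlr7, 0.902 for Tlr6, 0.896 for Tlr1, 0.885 for Tlr4, 0.854 for Tlr2 and 0.840 for Myd88. Tlr3 gave 0.277 and Tlr8 -0.0906. The link was not particular to macrophage markers. With the sum of the general leukocyte markers, r was 0.976 for Tlr13, 0.972 for Tlr7, 0.935 for Tlr1 and 0.892 for Tlr4. It was 0.881 for Myd88, 0.880 for Tlr2 and 0.869 for Tlr6, and Tlr6 alone of these was closer to the macrophage sum. The B cell sum gave 0.420 for Tlr6 up to 0.767 for Tlr2. For HFD against chow in Lama4 AKO mice the 12 markers had a median log2 fold change of 0.66, with 0 called and with Cd68 higher and Cd163 and Ccr2 lower at an adjusted p of 0.05, beside a median of 0.43 for the 9 members and -0.00310 for all genes. These correlations are descriptions over 24 libraries that share depth and tissue makeup, and in whole tissue fewer cells of a type and less RNA per cell cannot be told apart.

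Set against the summed macrophage markers, the diet differences of Tlr7 and Tlr13 in Lama4 AKO mice were smaller. That sum is dominated by its most abundant genes. In HFD Lama4 AKO mice Lyz2 had a mean of 5602 CPM and Ctss 2459 CPM, beside 51.9 CPM for Ccr2 and 18.6 CPM for Cd163. The ratios below thus mostly compare members with Lyz2 and Ctss. Per 1000 CPM of the marker sum, Tlr7 had medians of 3.27 in chow and 3.62 in HFD Lama4 AKO mice, and Tlr13 had 3.59 and 4.57. Tlr4 had 3.84 and 3.03, and Myd88 9.96 and 5.91. For Tlr8 the medians were 0.453 on chow and 0.00970 on HFD, with ranges of 0.174 to 0.746 and 0 to 0.191. The part of the macrophage markers in any of the diet differences was not tested beyond these ratios. The 8 adipocyte markers had a median of -1.05 in the same comparison, with Lep called lower, and their sum correlated with Myd88 at r = -0.899 and with Tlr4 at -0.855.

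**Figure D4:**
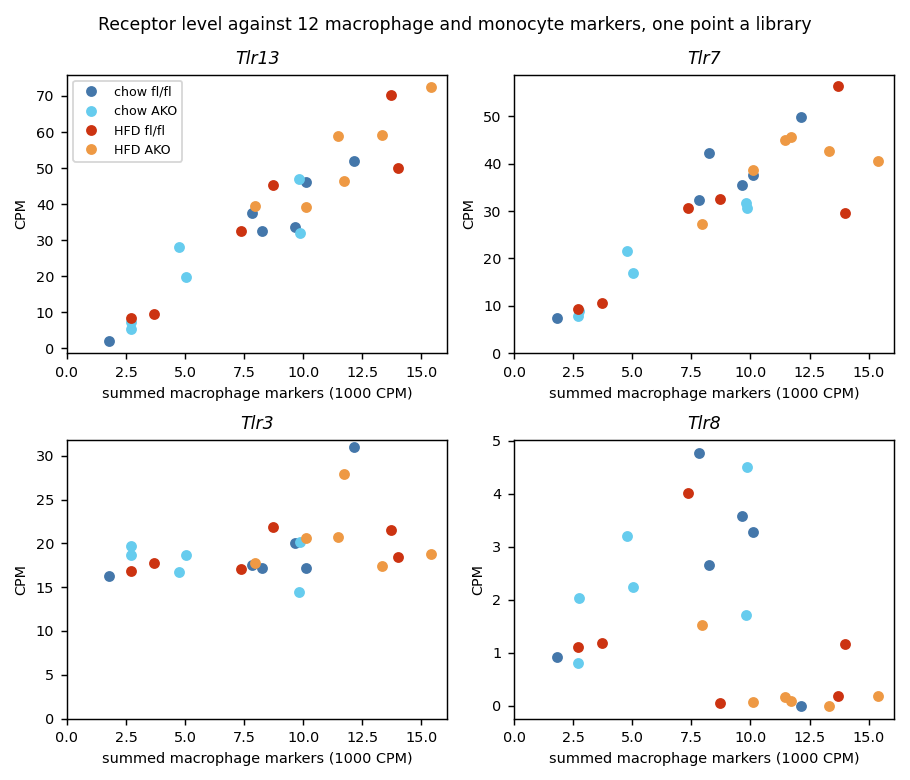
Level of Tlr13, Tlr7, Tlr3 and Tlr8 in CPM (y axis) against the summed level of 12 macrophage and monocyte markers in units of 1000 CPM (x axis), 1 point a library, coloured by group. Tlr13 and Tlr7 climb with the markers, Tlr3 stays between 14.5 and 31.0 CPM, and Tlr8 shows no such trend.

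By Pearson's r, with no cut-off set beforehand, the members fell into 7 genes that moved together and 2 that did so less or not at all. Pearson's r of the deviations was 0.964 for Tlr7 and Tlr13, 0.942 for Tlr1 and Tlr7, 0.910 for Tlr2 and Myd88 and 0.906 for Tlr4 and Myd88. The neighbours Tlr1 and Tlr6 had r = 0.834, and the neighbours Tlr7 and Tlr8 had r = -0.103. Tlr3 was closest to Myd88 (r = 0.577) and farthest from Tlr8 (r = -0.594). Its distance from the 7 depends on the measure. Spearman's rho was 0.543 for Tlr3 and Myd88 and 0.531 for Tlr6 and Myd88. Tlr8 reached no more than 0.0784 with any other member, which was Tlr6.

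**Figure D5:**
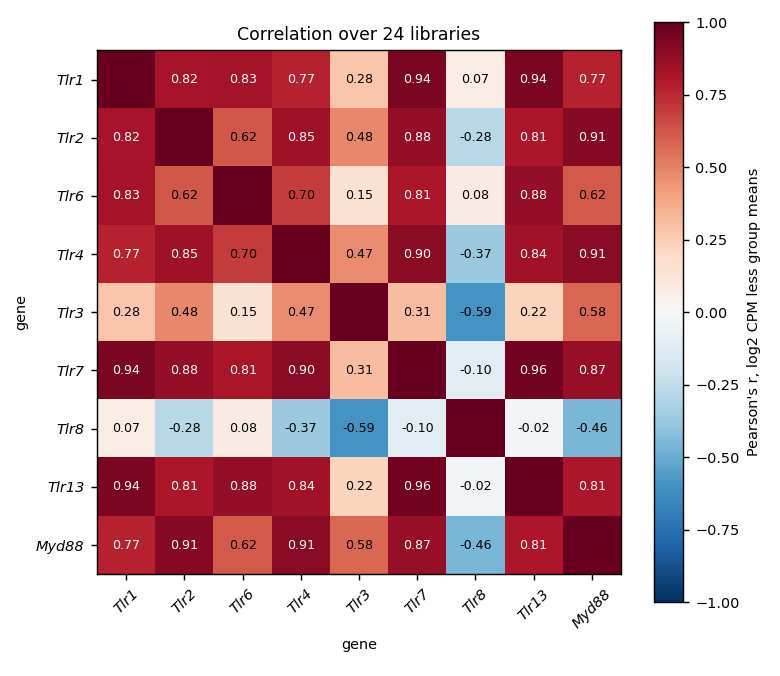
Pearson's r between the members over 24 libraries, computed on log2 CPM less the group means and shown in colour from -1 to 1 with its value in each cell. Tlr1, Tlr2, Tlr4, Tlr6, Tlr7, Tlr13 and Myd88 form a block of r from 0.617 to 0.964, and the rows of Tlr3 and Tlr8 lie outside it.

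The genes most like each member, among those with at least 5 CPM on average, divided in the same way. Tlr13 was closest to Aph1c (r = 0.988), Trem2 (0.987), a receptor of lipid-associated macrophages, and the lysosomal proton pump subunit Atp6v0d2 (0.987). Tlr7 was closest to Milr1 (0.984), Pianp (0.984) and Adgre1 (0.983), the F4/80 antigen of macrophages, and Tlr1 to the myeloid lectin Clec12a (0.992), Pkib (0.986) and Gpr65 (0.978). Tlr2 lay next to Ebi3 (0.953), Ppfia4 (0.952) and Arl4c (0.951), Tlr6 next to Nfam1 (0.968), Lgals3 (0.963) and Frmd8 (0.962), and Tlr4 next to Atp6ap2 (0.954), Rap1b (0.953) and Cltc (0.949). Myd88 lay next to the DNA-sensing adaptor Sting1 (0.974), Pla2g15 (0.968) and Ptger4 (0.963).

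For Tlr3 the closest genes were D030056L22Rik (0.819), the class I light chain B2m (0.812) and the interferon-induced GTPase Gbp2 (0.810), and 3 genes in all passed r = 0.8. For the 7 genes that moved together, between 668 and 1044 of 10716 genes did, and for Tlr8 182 did. Shared depth and tissue makeup enter all of these values, so they describe the libraries and show no relation between the genes.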

How the data were processed

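eWAT RNA of 24 mice was sequenced by the authors as QuantSeq 3′ libraries with reads of 50 bases and counted per gene on GRCm38 with the Lexogen QuantSeq pipeline on the Bluebee platform, and the deposited counts are whole numbers, 1 column a mouse. The other deposited table is a normalised signal, which the authors made by dividing each library's counts by its size factor, and it supplied gene symbols here but entered no test. The submitters' processing notes name R 4.0.3 and DESeq2 1.30. No table column was left without a sample.

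Counts were tested with edgeR 4.0.16 (quasi-likelihood, TMM factors, R 4.3.3) on all 24 mice with 1 coefficient per group, on genes that reached 1 CPM in 3 or more libraries, with library sizes recomputed after the filter. P-values were adjusted by the Benjamini-Hochberg method over all genes tested. Levels are CPM on deposited counts with TMM factors, and correlations used log2 CPM with a prior count of 2. All tests were two-sided, and p-values measure the spread between mice. The intervals rest on the same spread between mice, and the count limits cover counting error only. Alternatives used limma 3.58.1 (voom), DESeq2 1.42.0, RLE factors, no filter, only the groups compared, a replicate block, an adjusted p of 0.05 in place of the call criteria, each library left out, and 19 mice inferred as kept by the study.

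The members and gene lists were chosen with earlier results of these data known. Named genes were all members, Lama4, list genes called in a comparison (at most 4 of a list), and the 3 genes most correlated with each member. Other genes are said to be named after their values were seen. No pair of libraries matched within sampling noise. The tests were checked on simulated counts with changes planted only in genes more abundant than Tlr1, Tlr2, Tlr3, Tlr6 or Tlr8. Those genes also had a limited spread between mice, and every planted change was well above the fold limit of 1.5. Levels as low as those of these members, genes with a wider spread and changes near that limit were not covered. Tlr9 was not analysed here.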

Additional observations from a re-analysis of the deposited data

Results flagged for a closer look

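In 10 of the 36 sets of 6 mice, 1 for each of 9 genes and 4 groups, 1 library lay far from the others by Dixon's test on log2(CPM + 0.1). For a single set chance gives about 1 in 20. The sets share libraries and most members moved together, so the 10 are not separate observations. In chow Lama4 fl/fl, replicate 1 was the lowest library by a wide gap for Tlr1 (0.7216 CPM), Tlr2 (3.917 CPM), Tlr6 (2.474 CPM), Tlr7 (7.422 CPM) and Tlr13 (2.165 CPM). The same library had the lowest sum of macrophage markers of its group, 1796 CPM, from a total of 10195574 counts. Tlr3 was highest in chow Lama4 fl/fl replicate 3 (31.01 CPM) and in HFD Lama4 AKO replicate 1 (27.94 CPM). In HFD Lama4 AKO, replicate 6 was lowest for Tlr7 (27.2 CPM) and Myd88 (44.21 CPM) and highest for Tlr8 (1.521 CPM). Leaving it out moved Tlr8 to the called genes for diet in Lama4 AKO mice.

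The diet response of Tlr7 was higher in Lama4 AKO than in Lama4 fl/fl mice by 1.307 on the log2 scale (SE 0.583, adjusted p = 0.295 in edgeR), and it was 0.87 (SE 0.57, adjusted p = 0.562) with 19 mice.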

How the results depend on the processing

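With all 24 mice 0 members were called, so alternatives could only add calls, and 1691 values of single members kept their side of the call criteria while 19 passed them. An adjusted p of at most 0.05 gave 2 members for diet in Lama4 AKO mice and 1 averaged over genotypes. With 19 mice edgeR called 2 members for diet in Lama4 fl/fl mice, 1 in Lama4 AKO mice and 4 averaged over genotypes, and limma-voom called 2, 2 and 4. Leaving out each library in turn gave 0 to 1 members for diet in Lama4 AKO mice and 0 to 1 averaged over genotypes, and 0 in the other 4 comparisons. The member was Tlr8, called in Lama4 AKO mice without HFD Lama4 AKO replicate 6 (-4.44) and averaged over genotypes without that library (-2.71), without chow Lama4 fl/fl replicate 3 (-2.05) or without HFD Lama4 fl/fl replicate 3 (-2.30). DESeq2, limma-voom on 24 mice, RLE factors, no filter and only the groups compared called 0 members. Over all genes the count for diet in Lama4 AKO mice was 619 with edgeR, 1315 with DESeq2 and 1388 when only those groups were fitted, and averaged over genotypes it was 338 with edgeR and 632 with DESeq2.

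Same-numbered mice of different groups deviated together in 13 of 36 pairs of libraries (r from -0.62 to 0.78), so the numbers were not taken to pair them. With a replicate block 0 members were called in all 6 comparisons and the count over all genes for diet in Lama4 AKO mice was 457. Depth limits Tlr8, which had 23 counts in all in the HFD Lama4 AKO libraries.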

Other observations

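Other cell types of the pad gave these values beside the members, with no test of their part. For HFD against chow in Lama4 AKO mice, the 5 general leukocyte markers had a median log2 fold change of 0.69 and the 4 B cell markers 1.09. The 4 T cell markers had 0.05 and the 4 measured neutrophil markers -0.54. In these lists 0 genes passed an adjusted p of 0.05, against 22.1% of all genes. The 4 endothelial markers had a median of -0.73, and Pecam1 and Cdh5 were lower. Siglech, a marker of plasmacytoid dendritic cells, which are known for Tlr7, was lower at -1.24 (SE 0.45, adjusted p = 0.0487, edgeR). Among stromal and mesothelial markers Pdgfra was called higher (0.69) and Msln lower (-2.36).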
